A study of Mus musculus with 4 samples.

Results

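The 10 genes described here encode transcription factors of the Ets family, namely Ets1, Ets2, Fli1, Elf1, Elf2, Elf4, Etv3, Etv6, Elk4 and Gabpa. They were taken by gene name, and every probe that the array carries for them was used, which gave 23 of 56605 probes and 10 of 37074 gene names. RNA of 4 cell samples was hybridised, each to 1 Agilent expression array in a single colour: naive T cells of WT and of Nr4a-TKO origin, and the iTreg cells grown from each for 3 h. Nr4a-TKO cells lack the nuclear receptors Nr4a1, Nr4a2 and Nr4a3, and derive from C57BL/6J mice with floxed Nr4a1 and Nr4a2 alleles and Nr4a3-/-, on a background that reports Foxp3 through a human CD2 and CD52 knock-in. The Cre that removed the floxed alleles is not given in the sources used here. The mice named in the study methods were 6 to 8 weeks old. Naive CD4+ T cells (Ly5.2+, CD62L high, CD44 low, CD25 low, Foxp3-) were sorted from the spleen and lymph nodes of irradiated Rag2-/- hosts 6 weeks after transfer of bone marrow. Nr4a-TKO cells came from hosts that had received WT and Nr4a-TKO marrow together, whereas WT cells came from hosts of WT marrow alone, so that genotype and kind of chimera cannot be told apart. For iTreg cells the naive T cells were kept for 3 h on coated anti-CD3 (2 µg/ml) with anti-CD28 (0.5 µg/ml), IL-2 (10 ng/ml), TGF-β1 (either 0.2 ng/ml or 0.5 ng/ml) and antibodies to IFN-γ and IL-4 (1 µg/ml each).

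Ets factors bind DNA through a shared winged helix-turn-helix domain that reads a GGAA core, and the bases around the core and the partner proteins separate the members. In T cells, Ets1 is abundant in the resting state and cooperates with Runx1, Fli1 acts in blood cell and T cell development, and the Elf group (Elf1, Elf2, Elf4) is tied to resting lymphocytes, with Elf4 known to hold T cells in quiescence. Etv3 and Etv6 are repressors, Elk4 is a ternary complex factor that binds next to the serum response factor Srf, and Gabpa is the DNA-binding subunit of GABP, whose activation domain lies in a separate protein, Gabpb1 or Gabpb2. The study concerned how Nr4a factors shape chromatin and gene expression in CD4+ T cells, and it examined an Ets motif in accessible chromatin, which is why this family is described here.

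Because each gene is read through short probes, the first 30 of the 60 bases are shown for the members on which the results turn, 5′ to 3′ along the transcript, with mm9 positions as in the array files.
Ets1 probe a, chr9:32561826-32561855, plus strand: acaaacctaagatgaattatgagaaactga
Fli1 probe, chr9:32229887-32229916, minus strand: ttttcaggtaatcgtgactttttaaacgat
Ets2 probe, chr16:95942227-95942256, plus strand: catggtgacctcagatcagcaagtgacatt
Elf4 probe a, chrX:45764256-45764285, minus strand: agcacctagccacagtgcctgatacacagt

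The Ets motif AGGAAG was searched on both strands of the 300 bases around each transcript start (250 before and 50 after) in the RefSeq promoter table for GRCm38.p6. The table held 13 entries for 8 members (not for Ets1 and Fli1), and AGGAAG was found in 8 of the 13 entries, against 35.4% of all 32851 entries. These entries belonged to 6 of the 8 members. Some members have several entries, and no share per gene was taken to set beside that count. The longer form CCGGAAG was found in 2 entries, of Elk4 and Gabpa, against 8.86% of all entries. It can overlap AGGAAG but does not contain it. The AP-1 sequence TGANTCA was found in 3 of the 13 entries (7.81% of all), and the Nr4a monomer sequence AAAGGTCA in 0 of the 13 (1.51% of all). Some entries of a gene overlap, and a match describes letters and not a bound site. An entry of Elf4, which was lower at 3 h, and that of Gabpa, which was higher, are shown because both carry AGGAAG 2 times. The other Elf4 entry (chrX:48454270-48454569) carries it 0 times. Capitals mark AGGAAG and CCGGAAG on either strand.
Elf4 promoter, chrX:48463083-48463382, minus strand, GRCm38.p6: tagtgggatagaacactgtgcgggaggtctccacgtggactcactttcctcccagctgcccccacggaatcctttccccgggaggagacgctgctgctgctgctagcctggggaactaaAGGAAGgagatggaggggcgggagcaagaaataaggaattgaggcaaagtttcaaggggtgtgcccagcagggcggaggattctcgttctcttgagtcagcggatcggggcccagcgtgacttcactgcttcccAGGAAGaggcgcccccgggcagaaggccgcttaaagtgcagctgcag
Gabpa promoter, chr16:84834874-84835173, plus strand, GRCm38.p6: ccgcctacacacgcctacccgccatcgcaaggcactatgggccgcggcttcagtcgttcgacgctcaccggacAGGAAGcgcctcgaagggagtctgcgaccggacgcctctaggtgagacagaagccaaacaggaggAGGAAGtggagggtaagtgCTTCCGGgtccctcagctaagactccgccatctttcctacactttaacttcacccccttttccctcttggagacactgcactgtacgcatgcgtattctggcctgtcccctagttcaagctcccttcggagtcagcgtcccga

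Signals are given on the log2 scale after background correction and quantile normalization over the 4 arrays, and the level of a probe is not compared with that of another probe. With 1 array per group no difference could be tested against a spread between mice. Probes printed on 5 or more spots and well above background had a median SD between 0.11 and 0.13 per array. This gives an SD between 0.16 and 0.18 for a difference of 2 arrays, called the spot SD, which covers the array alone. It is a median and not the SD of a given probe. It was not taken by signal level, so it may not hold for dim probes. A gene took the value of its brightest probe, and 2-fold was the threshold. All 7 T cell markers were well above background on the 4 arrays. They were all lower at 3 h in both genotypes, with median log2 differences of -0.71 in WT and -1.01 in Nr4a-TKO cells. The 7 naive T markers were also all lower (-3.01 and -2.76), and the 7 activation markers were all higher (3.30 and 2.45). The probes of the deleted genes did not check the genotype labels, since the deleted parts are not given in the sources used here: at 3 h the Nr4a1 probe was 0.48 higher and both Nr4a2 probes were 1.38 and 1.37 higher on the array labelled Nr4a-TKO, while 2 of 3 Nr4a3 probes were lower, with differences of -1.46 and -1.85. Groups are therefore named by their labels throughout.

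All 23 probes were well above background on every array. From naive T to iTreg 3 h, 4 of the 10 members were more than 2-fold lower in WT, where 8.21% of 26602 genes were, and none was more than 2-fold higher, where 8.19% of genes were. In Nr4a-TKO cells 4 of 10 were also more than 2-fold lower, where 7.61% of 27166 genes were, and none was higher by that much, where 7.55% of genes were. They were Ets1, Fli1, Elf1 and Elf4 in both genotypes. The median difference over the members was -0.82 in WT and -0.48 in Nr4a-TKO cells, and over all genes it was -0.05 and -0.02. At the level of probes, 8 of 23 were more than 2-fold lower in WT (8.47% of all probes) and the same 8 in Nr4a-TKO cells (7.92% of all probes). None of the 23 was more than 2-fold higher, as 9.23% of all probes were in WT and 8.19% in Nr4a-TKO cells. These arrays measure bulk RNA scaled to a shared distribution, so fewer transcripts per cell, fewer cells with the transcript and a change of total RNA cannot be told apart.

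**Figure D1:**
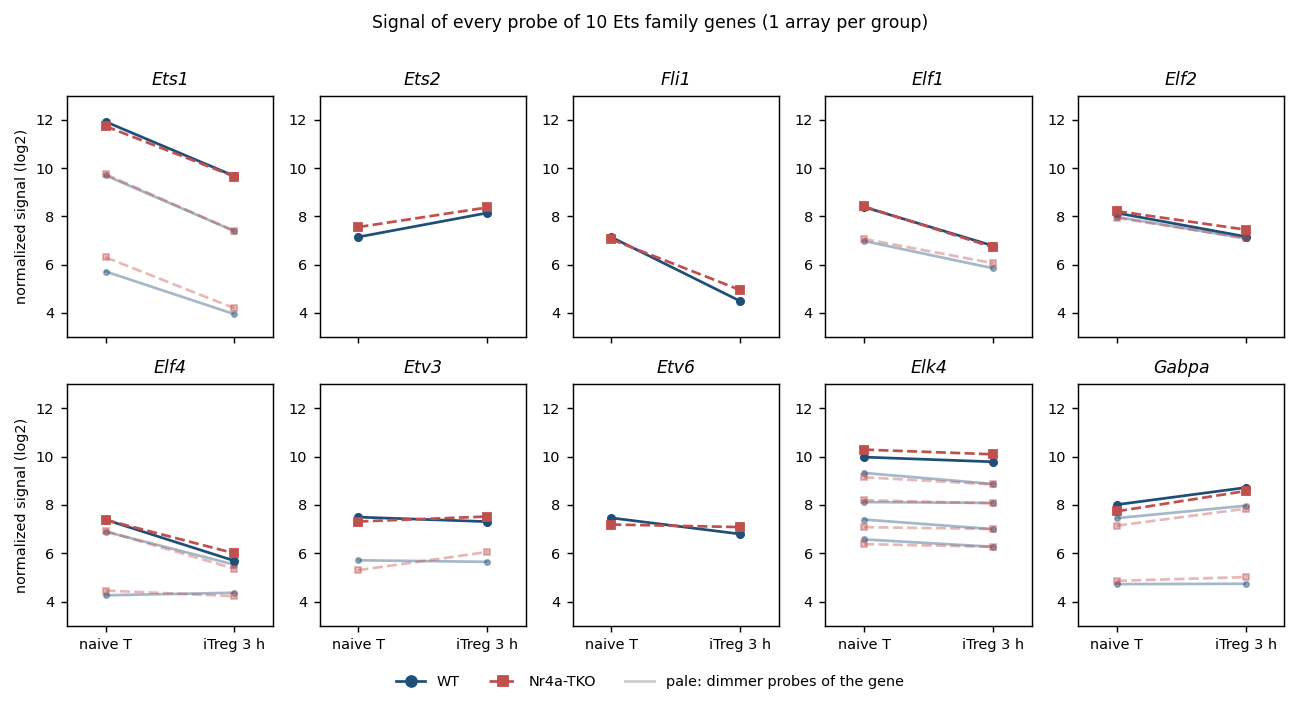
Normalized log2 signal of each probe of the 10 genes in naive T cells and in iTreg cells at 3 h, for WT (circles, solid) and Nr4a-TKO (squares, dashed), with 1 array per point and dimmer probes of a gene in pale colour. Lines of Ets1, Fli1, Elf1 and the brighter probes of Elf4 slope down in both genotypes, those of Ets2 and the brighter Gabpa probes slope up, and the 2 genotypes lie close together at both times.

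Ets1, the founding member in T cells, was lower at 3 h through each of its 3 probes. Its brightest probe gave 11.92 in WT naive T, 11.73 in Nr4a-TKO naive T, 9.67 in WT iTreg cells and 9.65 in Nr4a-TKO iTreg cells. Both naive arrays were above both iTreg arrays, which corresponds to 4.77-fold lower in WT and 4.25-fold lower in Nr4a-TKO cells. A probe farther along the same transcript (chr9:32564860-32564919) gave 9.70, 9.75, 7.39 and 7.39 in the same order, a fall by 2.31 and 2.35 on the log2 scale. The dimmest probe, for an Ensembl transcript (chr9:32537296-32537355), gave 5.72, 6.30, 3.95 and 4.19, with differences of -1.77 and -2.11. Its separation of the genotypes in naive T cells, 0.59, was larger than that of the other probes, which gave -0.19 and 0.05.

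Fli1 lies next to Ets1 on chromosome 9, with 0 protein-coding genes between them in the RefSeq table, and encodes an activator used in blood cell development. Its single probe gave 7.14 in WT naive T, 7.05 in Nr4a-TKO naive T, 4.49 in WT iTreg cells and 4.95 in Nr4a-TKO iTreg cells. It was 6.27-fold lower at 3 h in WT, the largest difference among the members, with 0.88% of all genes below it, and 4.28-fold lower in Nr4a-TKO cells. The 3 h signals are dim, and the difference in WT ranged from -3.16 to -1.40 with the background correction and scaling, more than 2-fold under all of them.

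Ets2, the close relative of Ets1 whose product is phosphorylated by the Ras and MAP kinase pathway, went the other way. Its probe gave 7.15 in WT naive T, 7.56 in Nr4a-TKO naive T, 8.14 in WT iTreg cells and 8.37 in Nr4a-TKO iTreg cells, so that both iTreg arrays were above both naive arrays. The difference was 0.99 in WT (1.99-fold) and 0.81 in Nr4a-TKO cells (1.75-fold), just short of the threshold, as was Elf2 at -0.98 in WT. Scaling to the 75th percentile and the deposited values put Ets2 past it in WT. Erg, the neighbour of Ets2 on chromosome 16 with 0 protein-coding genes between, was dim, with 4.02 and 3.80 on the WT arrays and no probe well above background on the Nr4a-TKO arrays.

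In the Elf group, Elf1 and Elf4 were more than 2-fold lower at 3 h by their brightest probes and Elf2 was not. Elf1, an activator of T cell genes, gave 8.38 in WT naive T, 8.41 in Nr4a-TKO naive T, 6.78 in WT iTreg cells and 6.72 in Nr4a-TKO iTreg cells. It was 3.04-fold lower in WT and 3.22-fold lower in Nr4a-TKO cells, and its other probe, for a cDNA (chr14:79938462-79938521), was 2.18-fold and 2.01-fold lower, with signals of 6.98, 7.07, 5.85 and 6.06. The probes thus shared a direction and differed in size.

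Elf4, the factor tied to T cell quiescence, gave 7.39 in WT naive T, 7.38 in Nr4a-TKO naive T, 5.69 in WT iTreg cells and 6.00 in Nr4a-TKO iTreg cells. This was 3.25-fold lower in WT and 2.62-fold lower in Nr4a-TKO cells, and the other RefSeq probe (chrX:45773960-45774019) was 2.58-fold and 2.94-fold lower. The third probe, for a predicted transcript (chrX:45806726-45806785), did not follow, with 4.26, 4.46, 4.36 and 4.22 and differences of 0.11 and -0.23. With the mean of the 3 probes in place of the brightest, the Elf4 difference in WT was -0.99 and no longer past 2-fold.

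Elf2, which has activating and repressing isoforms, gave 8.14 in WT naive T, 8.21 in Nr4a-TKO naive T, 7.16 in WT iTreg cells and 7.45 in Nr4a-TKO iTreg cells. The differences were -0.98 and -0.76. Its other probe gave 7.97, 7.94, 7.09 and 7.09, and differences of -0.89 and -0.84. All 4 values were under 2-fold and several times the spot SD.

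Among the repressors, Etv6 gave 7.46 in WT naive T, 7.19 in Nr4a-TKO naive T, 6.80 in WT iTreg cells and 7.08 in Nr4a-TKO iTreg cells. The WT iTreg array was the lowest of the 4, with a difference of -0.67 in WT and of -0.11 in Nr4a-TKO cells. Etv3 had its brightest probe, for an Ensembl transcript (chr3:87334860-87334919), at 7.49, 7.31, 7.31 and 7.52, a difference of -0.19 in WT and 0.21 in Nr4a-TKO cells. Its RefSeq probe (chr3:87342947-87343006) gave 5.71, 5.30, 5.64 and 6.05, with differences of -0.06 and 0.75. On both probes the Nr4a-TKO iTreg array was the highest of the 4, but on the brightest it passed WT naive T (7.52 against 7.49) by less than the spot SD.

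Elk4, the Srf partner, had 5 probes and small differences. The brightest gave 9.98 in WT naive T, 10.29 in Nr4a-TKO naive T, 9.79 in WT iTreg cells and 10.10 in Nr4a-TKO iTreg cells, a difference of -0.19 in each genotype. The other 4 probes gave differences between -0.46 and -0.03 in WT and between -0.30 and -0.08 in Nr4a-TKO cells. The sign depends on scaling, since the brightest probe was 0.05 higher in WT and 0.0043 higher in Nr4a-TKO cells under 75th percentile scaling.

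Gabpa was higher at 3 h through its brighter probes. The brightest, which crosses an exon junction, gave 8.01 in WT naive T, 7.74 in Nr4a-TKO naive T, 8.72 in WT iTreg cells and 8.58 in Nr4a-TKO iTreg cells, or 1.63-fold and 1.79-fold higher. A further probe (chr16:84860691-84860750) gave 7.45, 7.14, 7.97 and 7.84, or 1.43-fold and 1.63-fold higher. The dimmest one (chr16:84863822-84863881) gave 4.72, 4.86, 4.74 and 5.01, with differences of 0.02 and 0.16, both within the spot SD. In both genotypes the iTreg arrays were above the naive arrays on the brighter probes, and under 2-fold.

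**Figure D2:**
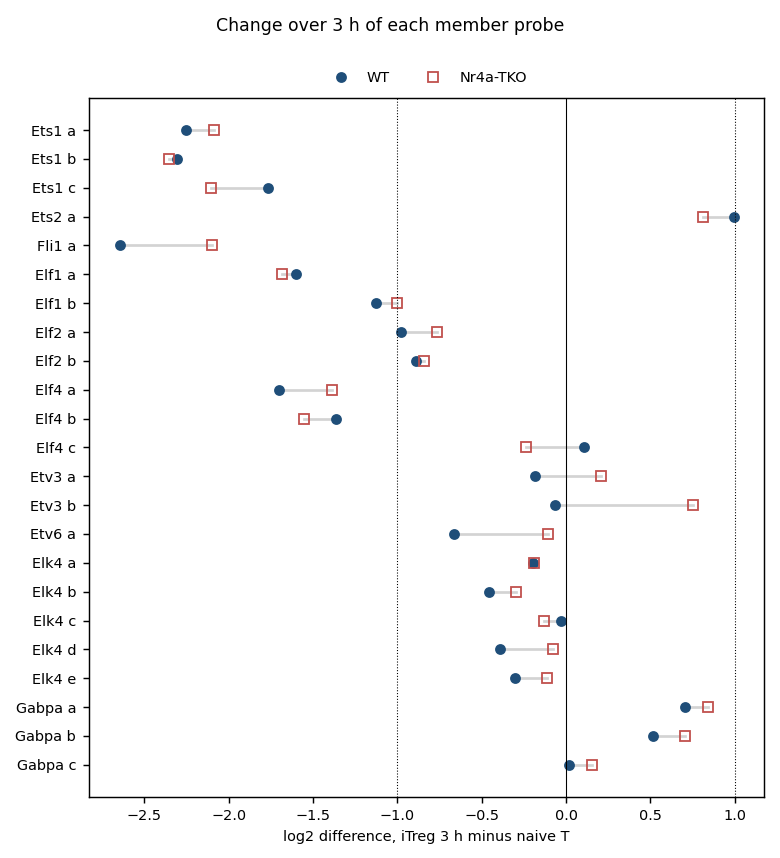
Log2 difference between iTreg cells at 3 h and naive T cells for each of the 23 probes, in WT (filled circles) and Nr4a-TKO (open squares), with dotted lines at 2-fold and letters ordering the probes of a gene from bright to dim. The 8 probes beyond the left dotted line, of Ets1, Fli1, Elf1 and Elf4, are the same in both genotypes, and none lies beyond the right line.

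Between the genotypes, no member was more than 2-fold apart in naive T cells, where 1.86% of 26446 genes were higher and 1.72% lower by that much in Nr4a-TKO, nor at 3 h, where 1.69% of 26919 genes were higher and 1.87% lower. Over the 10 members the median difference, Nr4a-TKO minus WT, was -0.05 in naive T cells and 0.26 at 3 h, beside -0.02 and 0.0016 over all genes. At 3 h 7 members were above 0 and 3 below. Over all 23 probes the median was -0.0029 and 0.0061, and with other processing the median over the members at 3 h was as low as 0.11. The difference was within the spot SD on 10 of the 23 probes in naive T cells (SD 0.16) and on 12 at 3 h (SD 0.18).

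In naive T cells only Ets2, at 0.41 (1.33-fold higher in Nr4a-TKO), was beyond 2 spot SDs by its brightest probe. The others lay between -0.28, for Gabpa, and 0.31, for Elk4. The 5 Elk4 probes did not share a direction there, with 0.31 and 0.08 for 2 of them and values between -0.31 and -0.18 for the rest. At 3 h Fli1, at 0.46 (1.37-fold higher in Nr4a-TKO), was the single member beyond 2 spot SDs, and this value ranged from 0.16 to 0.67 over the background corrections and scalings. Gabpa was lower in Nr4a-TKO at both times by its brightest probe, with differences of -0.28 and -0.14, the latter within the spot SD. Its dimmest probe was higher at both times, by 0.14 and 0.28, and with the mean of its probes the difference at 3 h was 0.0039. Ets1 differed by -0.02 and Elf1 by -0.06 at 3 h, both within the spot SD. No single probe of the 23 was more than 2-fold apart between the genotypes, where 1.83% of all probes were higher and 1.67% lower in naive T cells and 1.64% and 1.89% at 3 h.

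**Figure D3:**
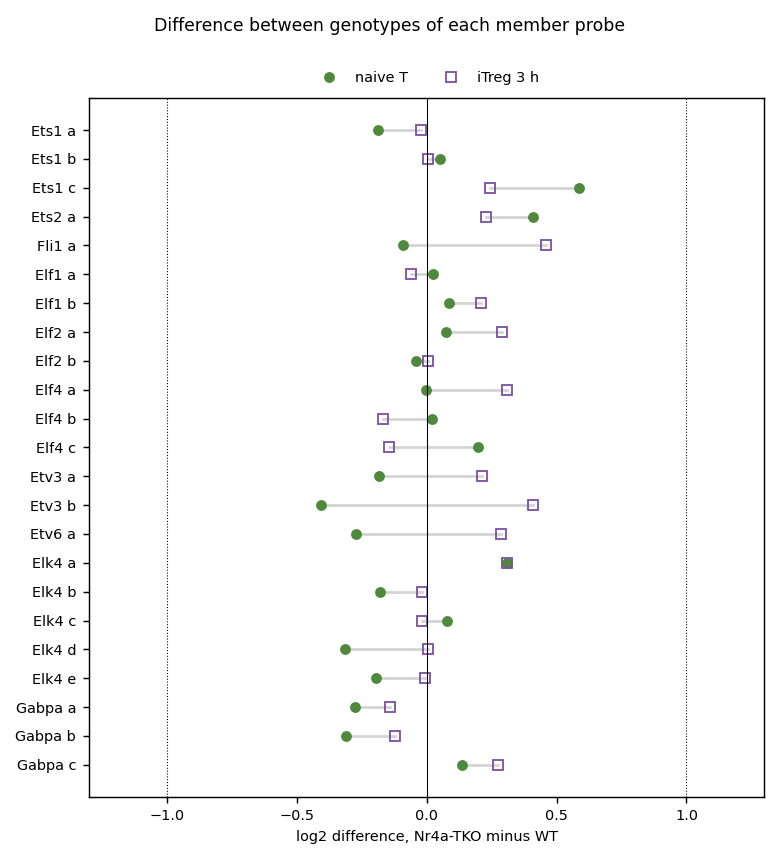
Log2 difference between Nr4a-TKO and WT for each of the 23 probes in naive T cells (filled circles) and in iTreg cells at 3 h (open squares), with dotted lines at 2-fold. All points lie inside the dotted lines, the farthest being the dimmest Ets1 probe in naive T cells at 0.59.

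The difference of the changes, Nr4a-TKO minus WT, has a spot SD of 0.24. No member passed 2-fold (2.46% of 25522 genes did upward and 2.34% downward), and the members lay between -0.18, for Ets2, and 0.56, for Etv6, with a median of 0.19 beside 0.01 over all genes. Fli1 followed Etv6 at 0.55, and Etv3 had 0.39 on its brightest probe and 0.82 on its RefSeq probe, the largest value of any member probe. Over the background corrections and scalings the Fli1 value ranged from 0.23, which is within the spot SD, to 0.76. There was no replicate to set these values against. Ets1 at 0.17, Elf1 at -0.09, Elk4 at 0.00 and Gabpa at 0.13 were within the spot SD.

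The rest of the family comprised 17 genes, of which 12 were well above background on all 4 arrays by their brightest probe. None of the 14 that could be compared was more than 2-fold apart over 3 h in WT, where 8.19% of all genes were higher and 8.21% lower. In Nr4a-TKO cells 1 of 14, Elk3, was higher by that much, where 7.55% of all genes were higher and 7.61% lower. The median differences were -0.08 and 0.0008. Elk3, a ternary complex factor that represses until it is phosphorylated, gave 7.04 in WT naive T, 7.15 in Nr4a-TKO naive T, 7.16 in WT iTreg cells and 8.28 in Nr4a-TKO iTreg cells. The last array stood above the other 3, which made Elk3 2.18-fold higher in Nr4a-TKO at 3 h, and its other probe, with 4.82, 5.06, 5.47 and 6.72, made it 2.38-fold higher. Its relative Elk4 differed at 3 h by 0.31 on its brightest probe and by between -0.02 and 0.0047 on the other 4.

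Spib, an Ets factor of B cells, gave 4.94 in WT naive T, 5.63 in Nr4a-TKO naive T, 4.78 in WT iTreg cells and 6.09 in Nr4a-TKO iTreg cells, and was 2.48-fold higher in Nr4a-TKO at 3 h. All 8 genes of a B cell list were well above background on every array. Of these 7 of 8 were higher on the Nr4a-TKO naive array and 8 of 8 on the Nr4a-TKO iTreg array, and their summed linear signal was 1023 and 709 in WT against 1350 and 1122 in Nr4a-TKO, for naive T and iTreg cells respectively. Beside Spib, Cd79a (1.14) and H2-Aa (1.34) were more than 2-fold higher at 3 h, whereas Ms4a1 (0.07) and Pax5 (0.11) were within the spot SD. Spib is itself in that list, and the part of B cell RNA in its difference was not tested. Spi1, which encodes Pu.1 of myeloid and B cells, was well above background on the Nr4a-TKO arrays alone, at 3.94 in naive T and 3.67 in iTreg cells, at least 1.41-fold and 1.18-fold above the WT arrays. Of the 7 myeloid genes between 5 and 7 were well above background per array. Lyz2, a defining one, lay between 3.79 and 4.27, near the lowest signals that count as detected. Cebpa lay between 6.05 and 6.49 and Csf1r between 11.15 and 11.75. The probe of Itgam was between 14.98 and 15.14 on every array and made most of the summed signal of 34621 to 39755. Because this probe was so bright and flat while Lyz2 was near the lowest signals, the sum is not read as a level of myeloid RNA. Cd14 gave 6.66 in WT naive T, 3.97 in Nr4a-TKO naive T and 4.58 in Nr4a-TKO iTreg cells, and was not well above background in WT iTreg cells. Of the 7 genes, 5 were higher on the Nr4a-TKO naive array and 3 on the Nr4a-TKO iTreg array. The part of myeloid RNA was not tested.

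Of the other genes with a bright probe, Erf, a repressor, gave 8.28, 8.40, 8.82 and 8.75, Etv5 7.54, 7.76, 7.32 and 7.41, and Etv4 7.04, 7.36, 6.96 and 6.93, with the naive arrays first and WT before Nr4a-TKO in each pair. The probes of Elk1 disagreed: the brightest lay between 15.39 and 15.52 on all arrays, another between 5.78 and 6.30, and the last was not well above background on any array, so no level of Elk1 is drawn from them. Etv1 was well above background on the WT naive array alone, Etv2 on the Nr4a-TKO iTreg array alone, and Elf3 on none. The second Elf5 probe was well above background on the WT iTreg array alone, at 4.56. Etv3l, the neighbour of Etv3 on chromosome 3, gave 4.33, 4.26, 4.57 and 3.99.

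**Figure D4:**
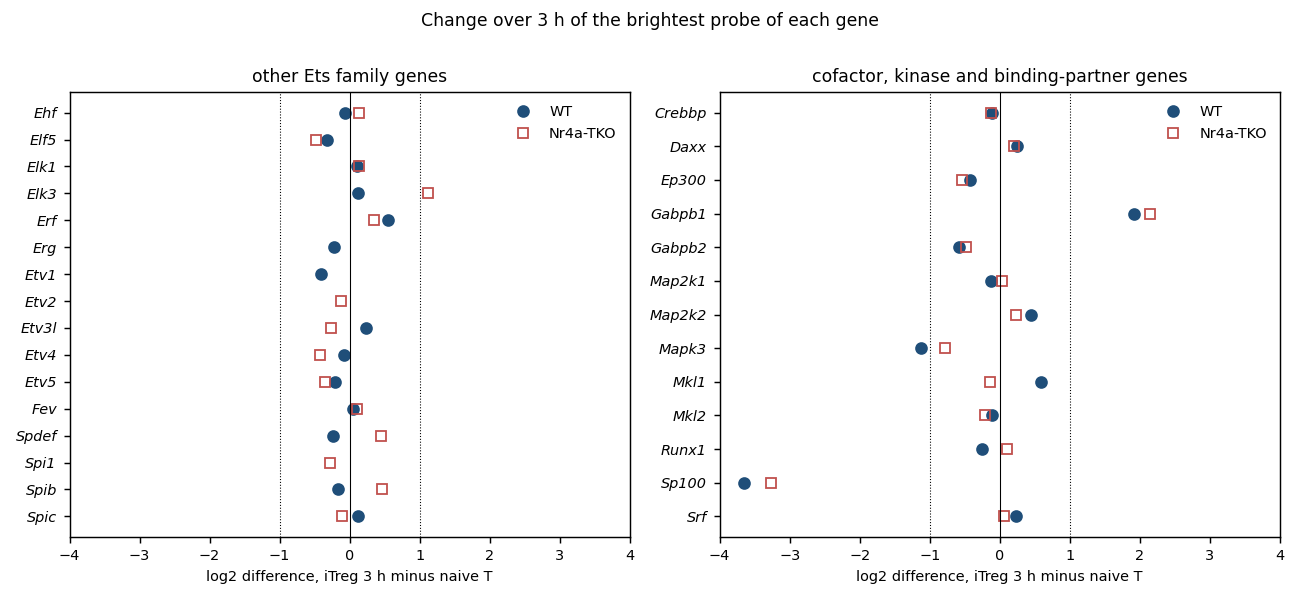
Log2 difference between iTreg cells at 3 h and naive T cells for the brightest probe of each other Ets family gene (left) and of 13 of the 14 cofactor, kinase and binding-partner genes (right), in WT (filled circles) and Nr4a-TKO (open squares), with dotted lines at 2-fold and a missing symbol where neither array was well above background. Elk3 passes 2-fold in Nr4a-TKO alone, Gabpb1 lies far to the right and Sp100 far to the left in both genotypes.

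The 14 genes of cofactors, binding partners and upstream kinases were all well above background on the 4 arrays. Over 3 h 1 was more than 2-fold higher and 2 were lower in WT, where 8.19% and 8.21% of all genes were. In Nr4a-TKO cells 1 was higher and 1 lower, where 7.55% and 7.61% of all genes were. The median differences were -0.11 and -0.05. Gabpb1, the activating subunit that pairs with Gabpa, was the higher one. Its brightest probe gave 7.75 in WT naive T, 8.06 in Nr4a-TKO naive T, 9.66 in WT iTreg cells and 10.20 in Nr4a-TKO iTreg cells, or 3.77-fold and 4.43-fold higher. Of its 6 probes, 5 gave differences between 1.32 and 1.91 in WT and between 1.20 and 2.15 in Nr4a-TKO cells, and the last was not well above background. The alternative subunit Gabpb2 went the other way by its brightest probe, with 9.85, 9.61, 9.27 and 9.13 and differences of -0.58 and -0.48, both under 2-fold. Its other 3 probes gave differences between -0.53 and 0.14 in WT and between 0.02 and 0.34 in Nr4a-TKO cells, so that they did not share a direction.

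Sp100, a nuclear body protein that binds Ets1, was the lowest, with 9.37 in WT naive T, 9.24 in Nr4a-TKO naive T, 5.71 in WT iTreg cells and 5.97 in Nr4a-TKO iTreg cells. It was 12.6-fold lower in WT and 9.65-fold lower in Nr4a-TKO cells, and 6.40-fold and 3.95-fold lower by its other probe. The probes of Daxx, a repressor that binds Ets1, disagreed, with differences of 0.24 and 0.20 on the brightest, -0.64 and -0.62 on a probe that overlaps it, and -0.65 and -0.40 on the last. Of the kinases that phosphorylate Ets factors, Mapk3 gave 6.85, 6.91, 5.72 and 6.13, or 2.18-fold lower in WT and 1.72-fold lower in Nr4a-TKO cells.

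Srf, the partner of Elk4, gave 10.28 in WT naive T, 10.12 in Nr4a-TKO naive T, 10.52 in WT iTreg cells and 10.17 in Nr4a-TKO iTreg cells, all within 0.41 of each other. Mkl1, the other Srf coactivator, had probes that disagreed, with 0.59 and -0.14 over 3 h on the brightest and -1.53 and -1.95 on the dimmer one. Crebbp, a coactivator acetyltransferase, differed by -0.10 and -0.13 on its brightest probe and by -0.61 and -0.73 on the second. Runx1, which binds DNA together with Ets1, had differences of -0.26 and 0.11 on its brightest probe, 0.48 and 1.09 on the second, and -0.67 and 0.09 on the third; all 3 were higher in Nr4a-TKO at 3 h, by 0.33, 0.55 and 0.75.

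For the 6 members whose brightest probe spanned more than 1 on the log2 scale over the 4 arrays, the genes with the most similar profile were taken by the Euclidean distance between mean-centred log2 values over those arrays, searched among the 13421 named genes detected on each array. Ets1 was closest to Lipa (0.05), Dnajc6 (0.07) and Tbc1d1 (0.11), and Fli1 to Klhl6 (0.06), Senp7 (0.07) and Prex1 (0.07). For Elf1 they were Cep19, Psmb10 and C2cd5 (0.05 to 0.06), for Elf4 Hist1h1e, Tap1 and Map4k2 (0.02 to 0.07), and for Elf2 Gsn, Tm7sf3 and Tacc1 (0.02 to 0.04). Ets2 was closest to Tufm, Rab3b and Ccnj (0.04 to 0.10). With 4 arrays such likeness is common: spot noise alone would give a distance of about 0.30, and within it lay 60 genes for Fli1, 93 for Ets1 and 818 for Elf2, of 22647 gene names of any kind well above background on all arrays.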

How the data were processed

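Spot intensities of the 4 arrays were used as deposited by the authors, who scanned them with Agilent Feature Extraction 11.5.1.1; the study methods name RMA in GeneSpring. A table of log2 values that the authors deposited was found to hold the processed intensity relative to the 75th percentile of each array. Mean intensity was corrected with normexp on the local background (offset 0), quantile-normalized over the 4 arrays and log2-transformed with limma 3.58.1 in R 4.3.3. Control and outlier spots were left out (115 to 160 flagged per array) and spots of a probe averaged. Between 65.0% and 67.7% of probes were well above background, and none was saturated. A probe below background was raised to the lowest detected signal of its array (3.07 to 3.45), so its difference is a lower bound. Gene names are those of the files and coordinates are on mm9. With 1 array per group no test was run; their number limits the precision. Counting past 2-fold was tested on simulated data. Members, lists and the naming rule (genes past 2-fold, detected on some arrays only, or among the 4 brightest) were chosen with earlier results of these data known; Gabpb2, Runx1 and Etv3l were named after their values were seen, and 1 gene of the cofactor list is not reported here. The alternatives are given in the closing section. Python 3.11.15 with pandas 2.3.3 and matplotlib 3.10.9 was used.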

Additional observations from a re-analysis of the deposited data

Results flagged for a closer look

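The change over 3 h had opposite signs on the WT and Nr4a-TKO arrays, each beyond its spot SD (0.17 in each genotype), for 3 probes. The probes looked at were the 23 of the members and the brightest of the 17 other Ets family genes and 14 cofactor genes. The share of all genes that pass this rule was not taken, so the count has nothing to be set beside. The difference between the genotypes was not tested. For the brightest Etv3 probe the change was -0.19 in WT and 0.21 in Nr4a-TKO cells, a difference of 0.39. For Etv3l it was 0.23 and -0.27, a difference of -0.50. For Spdef, an epithelial Ets factor with signals between 4.03 and 4.53, it was -0.23 and 0.45, a difference of 0.68.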

How the results depend on the processing

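Over 7 other ways of correcting, scaling and summarising the probes, Ets1, Fli1 and Elf1 stayed more than 2-fold lower at 3 h in both genotypes, and no member passed 2-fold between the genotypes. Elf4 dropped to -0.93 in Nr4a-TKO cells with a normexp offset of 50 and to -0.99 in WT with the mean of its probes. In WT 1 member, Ets2, was more than 2-fold higher under 75th percentile scaling and in the deposited values, against 0. A threshold of 1.5-fold placed 2 members higher in each genotype and 6 lower in WT and 5 in Nr4a-TKO cells, where 16.6% and 16.0% of all genes were higher and 17.1% and 16.4% lower. The median over members in WT was -0.64 with a normexp offset of 50, against -0.82. Of 350 values of single members 305 moved by less than 0.18 and 45 by more. This cutoff was the largest spot SD for a difference of 2 arrays. It was used also for the difference of the changes, whose spot SD is 0.24. Of the 305, 50 came from leaving out the floor for dim probes and 50 from keeping only genes detected on all arrays. Neither way could move a member, since all 23 member probes were well above background on every array. The share of all genes past 2-fold over 3 h in WT ranged from 3.89% to 9.97% higher and from 3.81% to 11.3% lower, in Nr4a-TKO cells from 3.36% to 9.32% and from 3.22% to 10.2%; between the genotypes it ranged from 0.42% to 2.84% higher and from 0.37% to 2.65% lower in naive T cells and from 0.30% to 2.81% and 0.40% to 2.69% at 3 h, and for the difference of the changes from 0.38% to 4.51% and 0.46% to 3.77%. The low ends came from the offset of 50, which compresses dim probes. Under 75th percentile scaling the median of all genes in WT was -0.11 over 3 h. No paired analysis was possible because each group had 1 array, which also left no array to leave out.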

Other observations

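Among 14 genes known as Ets targets in T cells, 13 were well above background on an array compared, and over 3 h 2 were more than 2-fold higher and 5 lower in each genotype, where 8.19% and 8.21% of all genes were in WT and 7.55% and 7.61% in Nr4a-TKO cells. Il7r, the receptor for the survival cytokine IL-7 and a target of the GABP and Ets1 proteins, gave 10.80 in WT naive T, 10.47 in Nr4a-TKO naive T, 7.79 in WT iTreg cells and 7.72 in Nr4a-TKO iTreg cells, 8.08-fold and 6.76-fold lower. Klf2, a quiescence factor, was 10.6-fold and 9.80-fold lower and Klf4, a target of Elf4, 7.26-fold lower in WT, and 5.05 against 7.05 in Nr4a-TKO cells; Klf4 was 2.02-fold higher in Nr4a-TKO at 3 h. Fos was 5.21-fold and 6.59-fold lower and Cd4 2.05-fold and 2.89-fold lower by its brightest probe.

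Il2, which encodes the T cell growth factor, was 10.3-fold higher in WT, set against a naive signal that was not well above background. In Nr4a-TKO cells it was 18.4-fold higher. At 3 h it gave 7.09 in WT and 8.28 in Nr4a-TKO cells. Egr1, an immediate early gene bound by ternary complex factors, was higher by 1.35 and 1.37. The probes of Il2ra disagreed: that of a cDNA differed by 0.30 and 0.42, while the RefSeq probe differed by 4.93 in WT and by 5.35 in Nr4a-TKO cells. The Nr4a-TKO naive signal of the RefSeq probe was not well above background. Foxp3 was 2.47-fold lower in Nr4a-TKO naive T cells and 2.56-fold lower in Nr4a-TKO iTreg cells, with 7.41, 6.10, 7.52 and 6.17 in the order used for Il7r.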
